A study of Homo sapiens with 6 samples.

Results

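The machinery of RNA polymerases I and III was examined in MOLM-13 cells as a set of 39 genes named by function: the subunits of both enzymes, their initiation factors, the small nuclear RNA activating complex SNAPc and the repressor MAF1. All 39 were found by symbol among the 58381 gene identifiers of the count table, and all 39 passed the filter on low counts that left 17219 genes for testing. MOLM-13 is a human cell line from an acute myeloid leukaemia, with an MLL-AF9 gene fusion and FLT3 internal tandem duplication. The cells were kept for 20 h in 5 µM DB2115, a compound that the labels give by code name, or in vehicle, 0.001% DMSO, and both groups grew in RPMI medium with serum and antibiotics. The series title names the transcription factor PU.1, and the contrast shows expression in a leukaemia line that expresses PU.1 with and without the compound. The labels list 3 libraries per group, but each group's column lettered V was the sum of its columns A and B within 1% in 98.5% of genes with at least 200 counts, so 2 libraries per group were compared. The labels do not say whether the libraries came from separate cultures, and the p-values reflect no more than the spread among these libraries, which may be technical.

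RNA polymerase I transcribes the repeated ribosomal DNA into the precursor of the large ribosomal RNAs. It is brought to its promoter by the HMG-box factor UBTF, by selectivity factor SL1, which is TBP with the TAF1 proteins, and by RRN3, which binds the polymerase itself. RNA polymerase III makes transfer RNAs, ribosomal 5S RNA, U6 and other short RNAs. It is recruited by TFIIIB, which TFIIIC places on transfer RNA genes, TFIIIC with TFIIIA on 5S genes, and SNAPc on U6-type genes. Output of both enzymes is known to rise in growing and transformed cells and to fall in differentiating cells.

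Total counts were between 36547900 and 42446253 per library, and levels below are CPM after TMM scaling (counts over the library total times a factor that aligns the libraries). On this scale 3 counts correspond to between 0.0725 and 0.0854 CPM. The 8 markers of this line (PTPRC, CD33, SPI1, MPO, FLT3, HOXA9, MEIS1 and CEBPA) lay between 32.3 and 481.3 CPM in every library. Of these, 2 fell, 5 rose and SPI1, which encodes PU.1, was not called. PTPRC fell from a mean of 204 to 33.8 CPM and FLT3 from 431.5 to 139 CPM, while MPO rose from 52.6 to 290.4 CPM. Of 12 markers of other cell types, 8 stayed under 1 CPM in every library, with KRT5 at 0 counts throughout. The summed level of the 12 was 83 and 75.1 CPM in vehicle and 207.9 and 216 CPM with DB2115, mostly PECAM1, which monocytes also express, and COL1A1. The part of both marker lists in the results was not tested. The scaling takes most genes as unchanged, whereas 64.1% of genes tested were called here, so levels are relative to the RNA sequenced. In bulk RNA, fewer cells of a type and less RNA per cell cannot be told apart.

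After DB2115 most of the machinery was lower, by amounts that differed widely between subunits of the same enzyme. Of the 39 members, 33 fell, 3 rose and 3 were not called (edgeR quasi-likelihood test, Benjamini-Hochberg adjusted p under 0.05), against 31.3% of all genes tested called lower and 32.7% called higher. The members called lower made up 84.6% of the set. A fall of at least 2-fold was called for 16 members, 41.0% of the set, against 9.53% of all genes tested, while the largest rise of a member was 1.38-fold and 17.5% of all genes tested rose at least 2-fold. The median log2 fold change of the members was -0.62, and that of all genes tested was 0.03. Libraries of the groups did not overlap for 33 members that were lower and 5 that were higher, and this was so for 39.4% and 42.0% of all genes tested. With 2 libraries against 2, non-overlap is a weak criterion, and 81.3% of all genes met it in either direction. The counts of members called lower ranged from 31 to 33 over all alternatives, and those of members called higher from 2 to 5. The highest came with upper-quartile factors or total counts, which added GTF3C5 and BRF1. Exons of 18 members overlap a tested gene on the opposite strand. The sources used here do not say whether strand was used in counting, so reads of such stretches cannot be told apart.

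**Figure D1:**
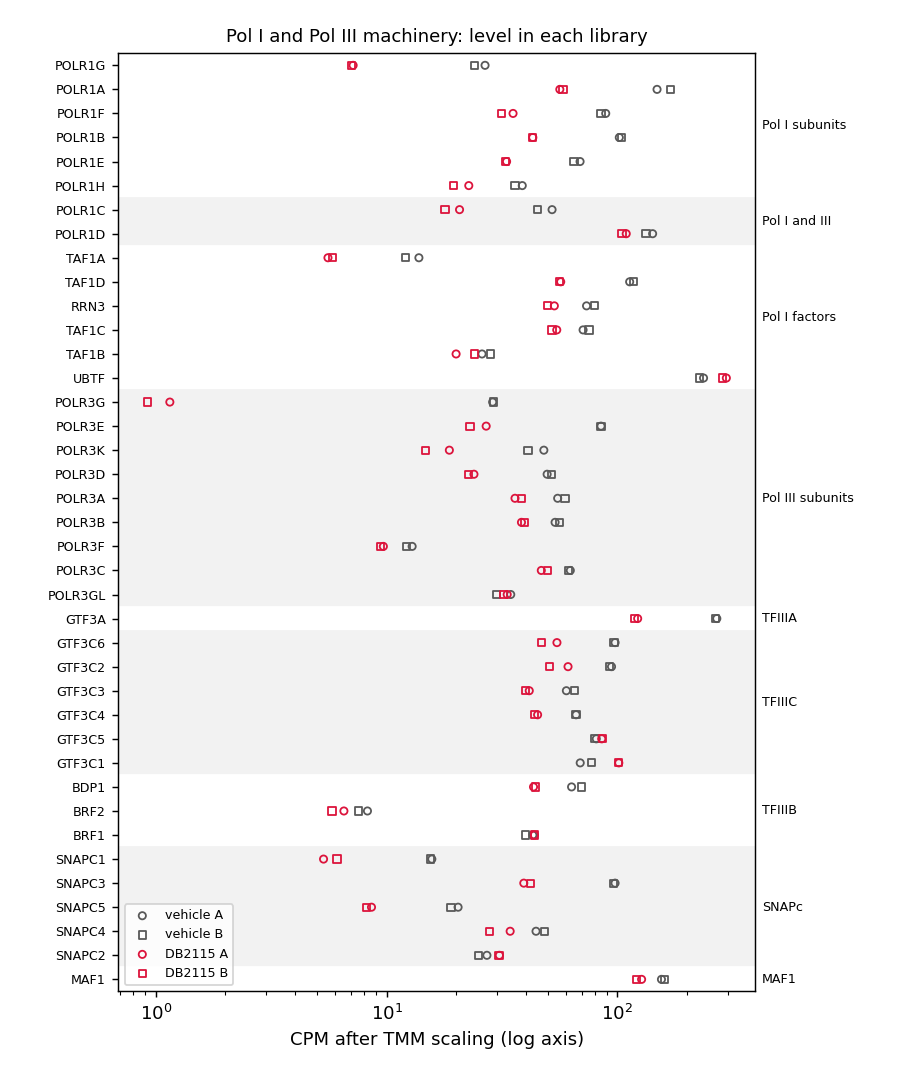
Level of each of the 39 members in the 4 libraries, in CPM after TMM scaling on a log axis, ordered by role and fold change. Grey symbols are vehicle and red symbols DB2115, circles are library A and squares library B. POLR3G has the widest gap, from 28.8 and 29 CPM in vehicle to 1.15 and 0.918 CPM with DB2115, while the symbols of POLR3GL overlap.

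The core of RNA polymerase I fell throughout. All 6 subunits found in this enzyme alone were lower, 5 of them at least 2-fold. These shares stand against 31.3% and 9.53% of all genes tested. The 6 had a median log2 fold change of -1.32 and a range from -1.84 to -0.82. POLR1A, the largest catalytic subunit (chromosome 2, 86020216 to 86106155, minus strand), stood at 149 and 169 CPM in the vehicle libraries and at 56.3 and 58.1 CPM with DB2115. Its level was therefore 2.78-fold lower (log2 fold change -1.47, SE 0.07, adjusted p = 2.03e-09). POLR1B, which forms the other side of the active centre, read 101.9 and 104 CPM in vehicle and 43.0 and 42.9 CPM with the compound, 2.40-fold lower. The catalytic pair thus fell by similar amounts, and in neither did the groups come near each other.

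POLR1G, also called PAF49, pairs with POLR1E on the outside of the enzyme in a module that resembles TFIIF. POLR1G (chromosome 19, 45406209 to 45410766, plus strand) had the largest fall of the Pol I subunits, from 26.7 and 24.1 CPM to 7.16 and 7.03 CPM (log2 fold change -1.84, SE 0.10, adjusted p = 5.24e-09). POLR1E, its partner, went from 68.9 and 64.8 CPM to 33.1 and 32.8 CPM, 2.03-fold lower. The partners thus fell to different degrees, 3.58-fold and 2.03-fold, a difference that was not tested. Exons of POLR1G share 1593 bases with ERCC1 on the opposite strand, and ERCC1 rose from 46.2 to 72.1 CPM. The POLR1G value is uncertain to that extent.

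POLR1F, the stalk subunit to which RRN3 docks, stood at 89.0 and 84.9 CPM in vehicle and at 35.3 and 31.4 CPM with DB2115, 2.61-fold lower. POLR1H, the small subunit that helps cleave the nascent RNA, fell least of the 6, from 38.7 and 36 CPM to 22.7 and 19.5 CPM (log2 fold change -0.82, adjusted p = 3.69e-06). Per kilobase of exon the Pol I subunits ranged in vehicle from 6.95 CPM per kb for POLR1G to 26.6 CPM per kb for POLR1E. With DB2115 the same genes marked the ends of the range, at 1.94 and 13.1 CPM per kb.

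POLR1C and POLR1D form a dimer that anchors the assembly of both polymerases, and they fell to different degrees, a difference that was not tested. POLR1C read 52.1 and 45.2 CPM in vehicle and 20.7 and 17.9 CPM with DB2115, 2.52-fold lower (log2 fold change -1.34, SE 0.09, adjusted p = 6e-08). POLR1D stood at 142 and 133 CPM and at 109 and 105 CPM in the same order, 1.28-fold lower (log2 fold change -0.36, SE 0.06, adjusted p = 0.000222). Groups did not overlap for either gene. POLR1C exons overlap XPO5 by 348 bases on the opposite strand, and XPO5 fell from 202 to 59.5 CPM, so part of the POLR1C signal is uncertain.

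The factors that bring Pol I to ribosomal DNA did not all move one way. Of 6 members, 5 fell and 1 rose, against 31.3% lower and 32.7% higher among all genes tested. Their median log2 fold change was -0.51. UBTF, which bends the ribosomal DNA promoter and keeps the repeats open, was the member that rose. Its level was 236.2 and 227.4 CPM in vehicle and 296.5 and 284.7 CPM with DB2115, 1.25-fold higher (log2 fold change 0.33, SE 0.06, adjusted p = 0.000274). The gene (chromosome 17, 44205033 to 44221626, minus strand) was also the highest of the 6 per kilobase of exon, at 33.1 CPM per kb in vehicle and 41.6 CPM per kb with DB2115.

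Within SL1 the TAF1 genes fell unequally. TAF1A dropped from 13.8 and 12.1 CPM to 5.57 and 5.85 CPM, 2.26-fold lower (adjusted p = 2.59e-06). TAF1D, which completes SL1, went from 113 and 117.8 CPM to 56.8 and 56.0 CPM, 2.05-fold lower. TAF1D exons share 250 bases with CEP295, 173 with C11orf54 and 88 with MED17 on the opposite strand. CEP295 rose, and C11orf54 and MED17 fell. TAF1C and TAF1B, the latter related to the Pol II factor TFIIB, had log2 fold changes of -0.46 and -0.30. TAF1B had an adjusted p of 0.0192, and it was not called without vehicle library B (adjusted p = 0.223) or without DB2115 library A (adjusted p = 0.107). The TAF1B call was also lost with upper-quartile factors (adjusted p = 0.102), total counts (0.115) and 1 CPM required in 3 libraries (0.0875). RRN3, the growth-regulated bridge to the polymerase, fell 1.49-fold, from 73.5 and 79.6 CPM to 53.3 and 49.9 CPM (adjusted p = 1.06e-05). RRN3 has close pseudogene copies, so its counts may be split between them.

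RNA polymerase III held the extreme of the set, the alternative subunit POLR3G. Of 9 members in this enzyme alone, 8 fell and 1 was not called, against 31.3% of all genes tested called lower. A fall of at least 2-fold was called for 4 of the 9, against 9.53% of all genes tested. The median log2 fold change of the 9 was -0.62 and the range ran from -4.80 to 0.02. POLR3G and POLR3GL are paralogues that occupy the same place in the trimer with POLR3C and POLR3F, and POLR3G is known as the form of undifferentiated and tumour cells. POLR3G (chromosome 5, 90471748 to 90514553, plus strand) stood at 28.8 and 29 CPM in vehicle, or 1010 and 1196 counts. With DB2115 it stood at 1.15 and 0.918 CPM, or 47 and 38 counts. The fall was 27.9-fold (log2 fold change -4.80, SE 0.13, adjusted p = 1.64e-11), and its log2 value lay between -4.99 and -4.66 over all alternatives.

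POLR3GL (chromosome 1, 145964702 to 145978848, plus strand) stood at 34.5 and 29.9 CPM in vehicle and at 33.3 and 32 CPM with DB2115. The groups overlapped, and no change was called (log2 fold change 0.02, SE 0.08, adjusted p = 0.841). POLR3G made up 45.5% and 49.2% of the counts of the pair in the vehicle libraries, and 3.33% and 2.79% with DB2115. The mean share was 47.3% ± 2.62 in vehicle and 3.06% ± 0.384 with the compound (SD, n = 2; exact two-sided permutation p = 0.333, the smallest that 2 libraries against 2 allow). Divided by exon length, so that the genes can be compared, the share of POLR3G was 28.7% in vehicle and 1.39% with DB2115. The length is that of all annotated exons joined, not of the transcripts expressed. By it POLR3GL was the higher of the pair in both groups, in vehicle by a wider margin than by counts. A stretch of 260 bases of POLR3G exon is shared with MBLAC2 on the opposite strand, a gene that went from 19.1 to 2.86 CPM, and its part in the counts was not tested.

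**Figure D2:**
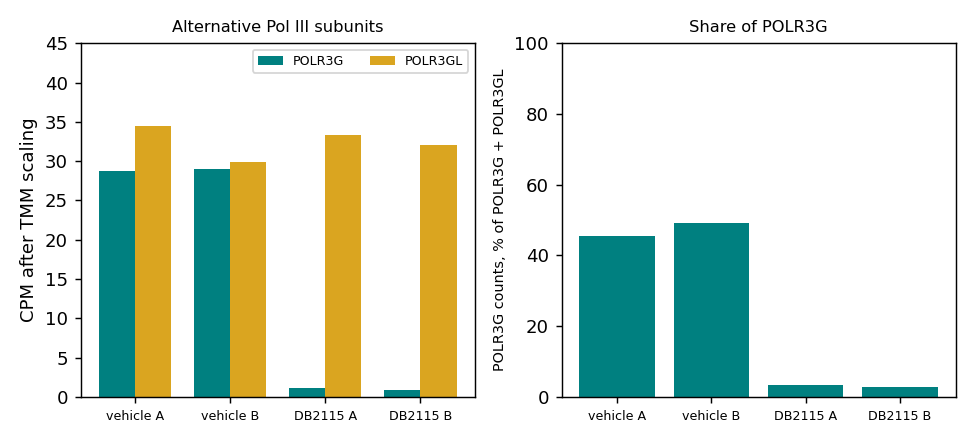
Left, CPM after TMM scaling of POLR3G and POLR3GL in each library. Right, counts of POLR3G as a percentage of the counts of the pair, from 45.5% and 49.2% in vehicle to 3.33% and 2.79% with DB2115, each bar 1 library.

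The module of POLR3D and POLR3E, which resembles TFIIF and takes part in initiation and termination, fell in both partners. POLR3E (chromosome 16, 22297375 to 22335103, plus strand) read 84.9 CPM in both vehicle libraries and 27.0 and 23.0 CPM with DB2115, 3.39-fold lower (log2 fold change -1.76, SE 0.08, adjusted p = 1.03e-09). POLR3D went from 49.6 and 51.8 CPM to 23.9 and 22.7 CPM, 2.18-fold lower. POLR3K, the termination subunit that acts with this module, fell from 48.0 and 41.0 CPM to 18.7 and 14.7 CPM (log2 fold change -1.41, SE 0.11, adjusted p = 1.92e-07). These genes and POLR3G are the Pol III subunits that fell at least 2-fold.

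The large catalytic subunits of Pol III had smaller fold changes. POLR3A had a log2 fold change of -0.62 (SE 0.07), from 55.1 and 59.3 CPM to 36 and 38.5 CPM, and POLR3B one of -0.49 (SE 0.07). The corresponding Pol I genes POLR1A and POLR1B had -1.47 and -1.26, and the difference between the enzymes was not tested. POLR3C and POLR3F, the partners of POLR3G in the trimer, had log2 fold changes of -0.36 and -0.39. Their levels with DB2115, 48.3 ± 2.11 and 9.54 ± 0.199 CPM (SD, n = 2), were 1.28-fold and 1.31-fold below vehicle.

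**Figure D3:**
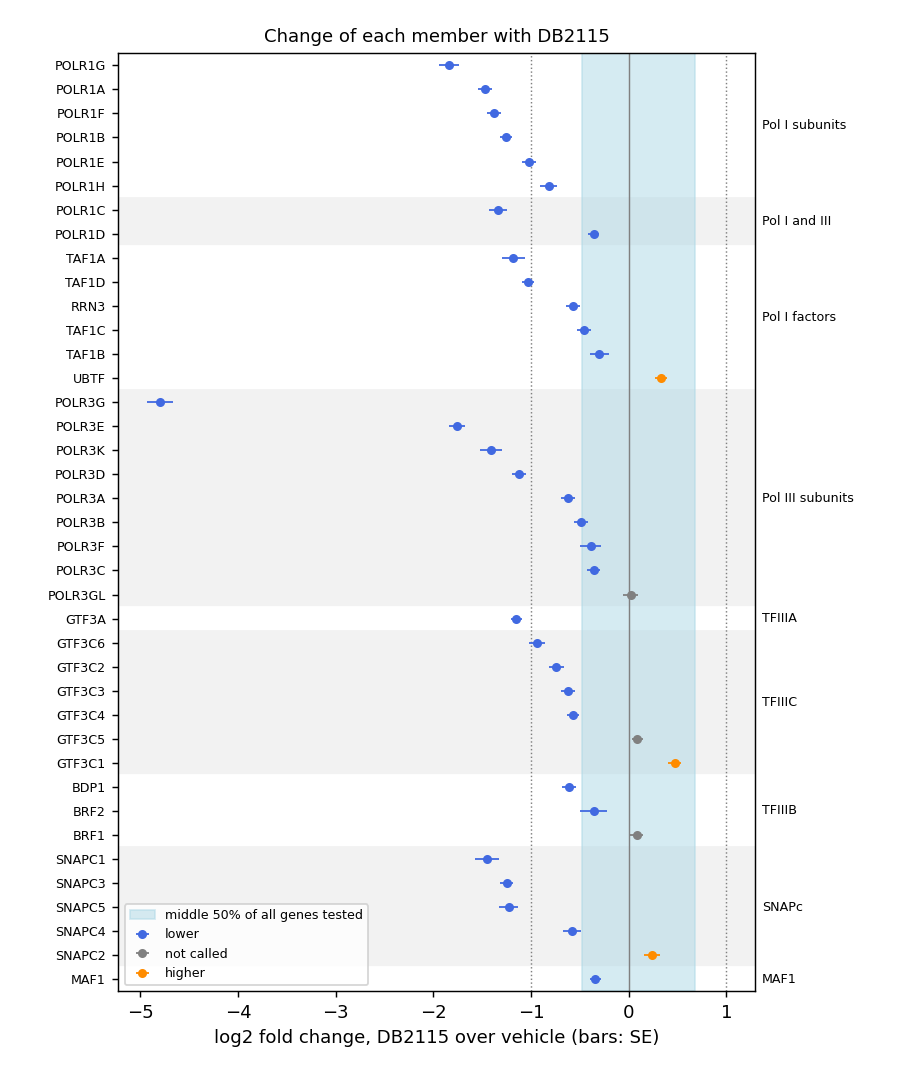
Log2 fold change of each member, DB2115 over vehicle, with bars of 1 SE, by role. Blue points were called lower, orange higher and grey not called, dotted lines mark 2-fold, and the shaded band holds the middle 50% of all genes tested. The 16 members left of the lower dotted line include 5 Pol I subunits and 3 members of SNAPc.

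Promoter windows were read because most members fell. RefSeq start sites on GRCh38.p14 gave windows of 300 bases, from 250 before to 50 after the start, for 33 of the 39 members. The others were BRF2, MAF1, POLR1E, POLR3D, POLR3G and SNAPC4, and the shares below do not cover them. The E-box CACGTG is a palindrome bound by MYC with MAX and by other bHLH factors. It was present in windows of 7 of these 33 genes, 21.2%, against 8.77% of all 27305 genes in the table. That set is larger than the 17219 genes tested here, whereas all 33 passed the filter. The members with the letters are few, and the difference was not tested. Some genes have more than 1 window, and by window the shares were 15.2% of 46 and 7.26% of 35116. Of the 13 members with a window that fell at least 2-fold, 2 held the E-box, POLR1G and POLR3E. In the other 5, GTF3C2, GTF3C4, GTF3C6, POLR3A and POLR3C, the falls were smaller. The PU.1-type site GAGGAAGT, searched on both strands, was in no member window, against 3.15% of all genes. At so low a share, its absence from 33 genes says nothing about the members. A match is a description of letters, not a site that was shown to be bound. The windows of POLR1G (chr19:45406394-45406693, plus strand) and POLR3E (chr16:22297159-22297458, plus strand) are shown as the members with the largest falls among those that have the E-box. Those of UBTF (chr17:44220833-44221132, minus strand, the outermost of 2 starts) and POLR3GL (chr1:145964440-145964739, plus strand) are shown for a member that rose and for the paralogue that was not called. Capitals mark CACGTG, and all run 5′ to 3′ on the gene's strand.
POLR1G: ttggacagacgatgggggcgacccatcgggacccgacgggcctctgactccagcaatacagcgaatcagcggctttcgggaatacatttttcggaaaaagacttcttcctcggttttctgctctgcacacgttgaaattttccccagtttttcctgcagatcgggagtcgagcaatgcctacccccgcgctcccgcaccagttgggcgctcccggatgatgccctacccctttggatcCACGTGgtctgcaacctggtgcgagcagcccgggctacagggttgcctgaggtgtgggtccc
POLR3E: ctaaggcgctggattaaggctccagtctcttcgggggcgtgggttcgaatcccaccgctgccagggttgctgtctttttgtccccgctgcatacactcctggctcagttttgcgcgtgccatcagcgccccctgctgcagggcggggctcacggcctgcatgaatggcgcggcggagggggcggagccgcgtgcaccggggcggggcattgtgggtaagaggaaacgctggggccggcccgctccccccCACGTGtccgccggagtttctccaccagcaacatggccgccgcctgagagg
UBTF: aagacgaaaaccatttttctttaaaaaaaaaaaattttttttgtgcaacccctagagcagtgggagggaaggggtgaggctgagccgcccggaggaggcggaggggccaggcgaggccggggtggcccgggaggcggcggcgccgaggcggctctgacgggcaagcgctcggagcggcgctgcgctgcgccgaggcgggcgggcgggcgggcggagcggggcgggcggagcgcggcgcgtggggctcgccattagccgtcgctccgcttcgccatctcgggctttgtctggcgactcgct
POLR3GL: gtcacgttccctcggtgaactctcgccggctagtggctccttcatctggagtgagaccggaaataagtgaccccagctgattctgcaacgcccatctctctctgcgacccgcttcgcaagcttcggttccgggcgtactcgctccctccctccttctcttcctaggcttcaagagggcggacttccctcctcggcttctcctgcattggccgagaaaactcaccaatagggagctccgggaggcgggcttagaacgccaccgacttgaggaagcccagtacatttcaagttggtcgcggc
By RefSeq starts, the E-box begins 12 bases before the start in POLR1G and 1 base before it in POLR3E. For POLR1G, POLR3E and UBTF the RefSeq start lies inside the gene bounds given above, which come from GENCODE. By those bounds both E-boxes lie within the genes. The UBTF and POLR3GL windows hold neither of the searched motifs.

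TFIIIA, encoded by GTF3A, is the zinc finger protein that starts transcription of the 5S genes. GTF3A (chromosome 13, 27424544 to 27435823, plus strand) read 269.6 and 265.6 CPM in vehicle and 122 and 119 CPM with DB2115, 2.22-fold lower (log2 fold change -1.15, SE 0.06, adjusted p = 2.51e-09). Per kilobase of exon it went from 89.2 to 40.2 CPM per kb, next in vehicle to the highest member, GTF3C6, at 91.1 CPM per kb. Its exons share 181 bases with MTIF3 on the opposite strand.

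TFIIIC, which reads the internal boxes of transfer RNA genes, divided. Of 6 subunits, 4 fell, 1 rose and 1 was not called, against 31.3% lower and 32.7% higher among all genes tested. Their median log2 fold change was -0.60, with no 2-fold change. GTF3C1, the largest subunit, which contacts the B box, rose from 69.0 and 77.3 CPM to 101.4 and 101.3 CPM (log2 fold change 0.47, SE 0.07, adjusted p = 5.44e-05). This 1.38-fold rise was the largest of any member. GTF3C5, the subunit that contacts the A box, had 80.5 ± 0.728 CPM in vehicle and 85.9 ± 0.566 CPM with DB2115 (SD, n = 2; log2 fold change 0.09, adjusted p = 0.193 by edgeR). GTF3C6, the smallest subunit, fell most, with a log2 fold change of -0.94, from 97.7 and 96.7 CPM to 54.7 and 47.0 CPM. GTF3C2, GTF3C3 and GTF3C4 fell with log2 fold changes of -0.74, -0.62 and -0.57, and GTF3C4 exons share 367 bases with DDX31 on the opposite strand, which fell from 37.6 to 13.6 CPM.

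TFIIIB holds the polymerase at the start site. BDP1, present in every form of it, fell from 63.3 and 69.8 CPM to 43.3 and 44.3 CPM (log2 fold change -0.61, adjusted p = 7.09e-06). BRF1, used at transfer RNA and 5S genes, was not called (log2 fold change 0.08, SE 0.07, adjusted p = 0.369). Its level was 43.0 and 40.0 CPM in vehicle and 43.7 CPM in both DB2115 libraries. BRF1 exons share 627 bases with BTBD6 and 417 bases with PACS2 on the opposite strand. Both of these genes rose, with log2 fold changes of 0.62 and 0.37, so the BRF1 value is uncertain. BRF2, the form used at U6-type genes, was called lower at adjusted p = 0.0362 with a log2 fold change of -0.36. That call was lost when vehicle library A (adjusted p = 0.166), vehicle library B (0.0693) or DB2115 library B (0.14) was left out. BRF2 exons share 1629 bases with ADGRA2 on the opposite strand, which rose from 112 to 280.0 CPM, so the BRF2 value is uncertain.

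SNAPc, which recognises the promoters of small nuclear RNA genes, had 4 members lower, 3 of them at least 2-fold, and 1 higher. The median log2 fold change was -1.23. Among all genes tested, 31.3% were called lower, 9.53% at least 2-fold lower and 32.7% higher. SNAPC1 fell from 15.7 and 15.5 CPM to 5.33 and 6.09 CPM, 2.73-fold lower (log2 fold change -1.45, SE 0.12, adjusted p = 1.92e-07). SNAPC3, which with SNAPC1 and SNAPC4 makes the core that binds DNA, went from 97.7 and 95.9 CPM to 39.3 and 42.1 CPM, 2.38-fold lower. SNAPC5, a small accessory subunit, went from 20.4 and 19.0 CPM to 8.60 and 8.19 CPM, 2.34-fold lower. SNAPC5 exons overlap MAP2K1 by 216 bases on the opposite strand. SNAPC3 exons overlap PSIP1 by 140 bases in the same way, and PSIP1 fell from 180.9 to 127.8 CPM. In SNAPC1, SNAPC3 and SNAPC5 the vehicle libraries lay more than 2-fold above the DB2115 libraries without overlap.

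SNAPC4, the largest subunit and the one with Myb-type DNA-binding repeats, had a smaller fall, with a log2 fold change of -0.58 (SE 0.09). SNAPC2, an accessory subunit, was called higher, from 27.2 and 25 CPM to 30.8 and 30.7 CPM (log2 fold change 0.24, SE 0.08, adjusted p = 0.0182). The SNAPC2 call was lost without vehicle library B, with a log2 fold change of 0.15 (adjusted p = 0.21), and with DESeq2 (adjusted p = 0.0609).

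MAF1, the repressor that binds Pol III when nutrient signalling through TORC1 falls, was itself lower. It stood at 155 and 159 CPM in vehicle and at 127 and 121 CPM with DB2115, 1.27-fold lower (log2 fold change -0.34, SE 0.06, adjusted p = 0.000244). Groups did not overlap.

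Other genes of the pathway, listed from textbook knowledge, gave the setting of these values. The lists are small, and among all genes tested 31.3% were called lower and 9.53% at least 2-fold lower. All 5 subunits shared by Pol I, II and III fell, none 2-fold, with a median log2 fold change of -0.60. POLR2H (-0.89), POLR2E (-0.60) and POLR2K (-0.59) had the smallest adjusted p of these. CRCP, a Pol III stalk subunit that was not among the 39, fell with a log2 fold change of -0.51 (adjusted p = 4.65e-05). TBP, used by all 3 polymerases, went from 37.5 ± 1.00 to 23.2 ± 1.55 CPM (SD, n = 2; log2 fold change -0.69, adjusted p = 6.51e-06). Of 7 subunits of Pol II alone, 5 fell and 2 were not called, with a median of -0.39. POLR2D (-1.20), POLR2I (-1.15) and POLR2C (-0.39) had the smallest adjusted p, while POLR2A, the largest subunit, had -0.01. Whether Pol I or Pol III subunits differ from those of Pol II was not tested.

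Nucleolar partners of Pol I include the t-UTP proteins, which act on the nascent ribosomal RNA. Of 9 such genes 8 fell, 7 of them at least 2-fold, with a median log2 fold change of -1.48. These shares, 88.9% and 77.8%, stand against 31.3% and 9.53% of all genes tested. WDR43 (-1.78), NOLC1 (-1.72) and NCL (-1.48), which encodes nucleolin, had the smallest adjusted p, whereas the terminator protein gene TTF1 was not called (0.02). Of 6 genes tied to silencing of ribosomal DNA, 3 fell, 1 rose and 2 were not called, against 31.3% lower and 32.7% higher among all genes tested, too few genes to read a direction from. MYBBP1A went from 259 ± 18.0 to 55.3 ± 5.42 CPM (log2 fold change -2.23), and SMARCA5, the ATPase of the silencing complex NoRC, had -0.50. BAZ2A, the NoRC subunit that targets ribosomal DNA, was the one that rose, from 204 ± 9.18 to 336 ± 4.32 CPM (log2 fold change 0.72, adjusted p = 2.51e-07). Among 4 factors of Pol III promoters and transcripts all fell, against 31.3% of all genes tested, again too few genes to read a direction from. SSB, the La protein that binds new Pol III transcripts, fell most, with a log2 fold change of -1.75. POU2F1 (-0.81) and ZNF143 (-0.66), activators of SNAPc promoters, followed.

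Among 12 upstream regulators, 5 fell, 4 rose and 3 were not called, with a median log2 fold change of -0.11. These shares, 41.7% lower and 33.3% higher, were near those of all genes tested, 31.3% and 32.7%. MYC, an activator of genes of both machineries, fell from 554 ± 15 to 21.8 ± 3.46 CPM (SD, n = 2; log2 fold change -4.66, adjusted p = 2.16e-12). RB1, whose product restrains both polymerases, rose from 170.5 ± 2.51 to 292.9 ± 2.39 CPM (log2 fold change 0.78, adjusted p = 7.63e-08). CSNK2A1, a catalytic subunit of the kinase CK2, fell with a log2 fold change of -0.60.

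**Figure D4:**
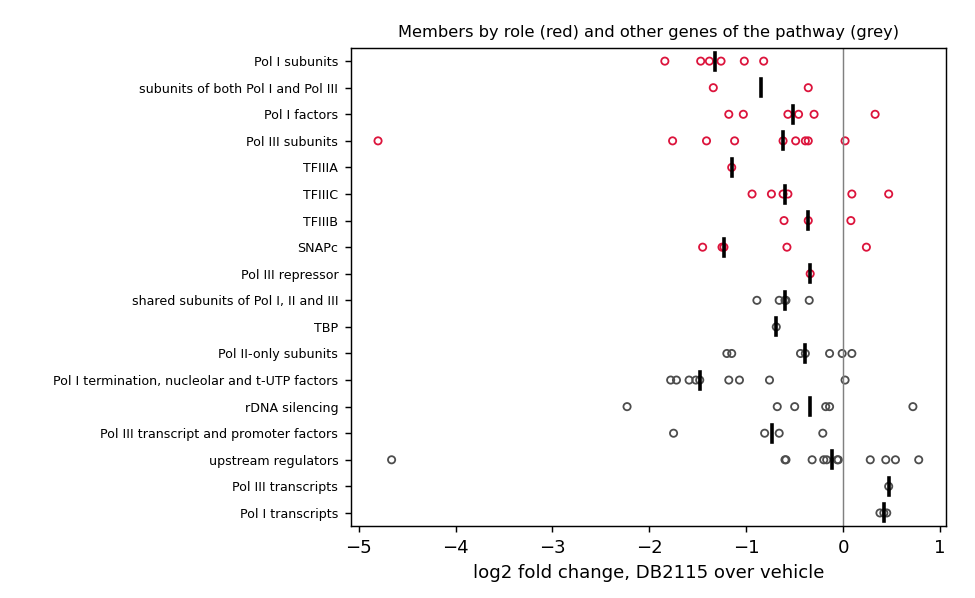
Log2 fold change, DB2115 over vehicle, of the members by role (red) and of the pathway lists (grey, without the Pol III stalk), with a black bar at each median. The Pol I subunits have a median of -1.32 and the nucleolar partners of Pol I one of -1.48, and the leftmost points are POLR3G at -4.80 and MYC at -4.66.

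The products of the polymerases were barely covered by these libraries. Of 35 Pol III transcript genes in the table, only the signal recognition particle gene RN7SL2 passed the filter. Its level was 104.2 and 44.2 CPM in vehicle and 84.5 and 119.7 CPM with DB2115, with overlapping groups and no call (adjusted p = 0.153). Of the Pol I products, 3 copies of the 5.8S RNA gene were counted, at 14.3 to 18.4 CPM in vehicle and 16.7 to 27.7 CPM with DB2115. All 3 were called higher, with log2 fold changes of 0.38 to 0.45. The copies are near-identical and share reads, and the sources used here do not say how RNA was selected, so these values are not a measure of ribosomal RNA synthesis.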

How the data were processed

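RNA sequencing of MOLM-13 cells was deposited by the authors as 1 table of raw counts in 6 columns, whole numbers with unequal totals. FastQC, STAR, DESeq2 and hg38 appear without versions, per the submitters' processing notes. The sources used here do not give the counting tool, annotation, strandedness or RNA selection. The V columns, sums of A and B (exactly so in 85.6% and 86.3% of genes with counts), were left out of the main fit. Symbols came from a gene name table (58257 of 58381 identifiers) and coordinates and exon lengths from GENCODE 29 on GRCh38.

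Counts were filtered with filterByExpr (minimum count 10, minimum total 15), TMM-scaled and fitted with edgeR 4.0.16 under R 4.3.3 over all genes (glmQLFit, glmQLFTest), with no covariate besides treatment. Each standard error was derived from the F statistic. The fit was tested on simulated counts with the dispersions of these data. It recovered 56% of 1.5-fold, 72% of 2-fold, 94% of 4-fold and 100% of 8-fold changes. Of 181 calls 20 were false, a larger share than the threshold of 0.05. Few genes were changed in the simulation, whereas 64.1% of genes tested were called here, so these rates need not hold for these data. Permutation tests used scipy 1.17.1. Columns could be tied to groups but not to numbered samples. Other scalings, filters, DESeq2 1.42.0, limma-voom (limma 3.58.1), a block and omitted libraries were tried.

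Members and lists were chosen with earlier results of these data known. Values in every library are given for members called with at least 2-fold change or called higher, and for POLR3GL and MAF1. From each pathway list up to 3 genes with the smallest adjusted p are named, with TBP. Other names, overlapping genes and the windows shown were chosen after values were seen. Some listed genes are not reported here.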

Additional observations from a re-analysis of the deposited data

How the results depend on the processing

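With upper-quartile factors or total counts, 5 members were called higher in place of 3, GTF3C5 and BRF1 being added, and the median log2 fold change of the members was -0.52, while that of all genes moved from 0.03 to 0.12. When 1 CPM in 3 libraries was required the members' median was -0.54. The TFIIIB members called lower dropped from 2 to 1 under those 3 settings, with DESeq2 and at adjusted p under 0.01, since BRF2 was lost. Leaving out a library in turn gave 31 to 32 members lower, a median of -0.76 to -0.60 and 1 to 2 TFIIIB members lower. The difference in the share of POLR3G was -44.3 percentage points by counts and -27.3 per exon length. A replicate block on the column letter left the counts at 33 lower and 3 higher. Deviations of same-lettered libraries correlated at 0.0159, so the letters are not taken to pair them. For the 21 members whose values are given by rule, 292 of 294 refits kept their direction or stayed uncalled and their side of the threshold, and 2, both of SNAPC2, lost the call. Outside these 21, BRF2 lost its call at adjusted p under 0.05 in 7 settings and TAF1B in 5, and GTF3C5 and BRF1 gained one in 4 and 2. The cause was not tested. A gain of GTF3C5 came from the fit of all 6 columns (log2 fold change 0.07, adjusted p = 0.00583 by edgeR). In that fit the V columns repeat the reads of A and B, so it is no independent check. It is among the alternatives and refits counted here. Depth limits mainly POLR3G with DB2115, which rests on 47 and 38 counts.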

Other observations

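The members are scattered over 17 chromosomes, and 3 pairs start within 1 Mb of each other. POLR1D and GTF3A on chromosome 13 had log2 fold changes of -0.36 and -1.15, POLR3C and POLR3GL on chromosome 1 had -0.36 and 0.02, and GTF3C4 and GTF3C5 on chromosome 9 had -0.57 and 0.09. In the first pair both genes were called lower, and in the last 2 pairs the first gene was called lower and the second was not called.

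POLR3E starts close to a transfer RNA gene, which was noticed after its values were seen. In RefSeq (GRCh38.p14) the leucine transfer RNA gene TRL-AAG2-4 occupies chromosome 16, 22297140 to 22297221, and ends 187 bases before the start of POLR3E at 22297409, so its 3′ part lies in the promoter window printed for POLR3E. No other of the 39 members has a RefSeq transfer RNA gene within 2 kb of its start. The tRNA itself was not analysed here.

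Exons of 18 members overlap those of a tested gene on the opposite strand. The overlapping genes moved in either direction. MBLAC2, which overlaps POLR3G, fell with a log2 fold change of -2.74 (adjusted p = 6.55e-10), DDX31, which overlaps GTF3C4, with one of -1.47 (adjusted p = 1.83e-08), and XPO5, which overlaps POLR1C, with one of -1.77 (adjusted p = 9.96e-11). SNRNP25, which overlaps POLR3K, was not called (-0.04, adjusted p = 0.705), and MAP2K1, which overlaps SNAPC5, rose (0.46, adjusted p = 2.87e-05). These genes were chosen after their values were seen.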
